A study of Mus musculus with 18 samples.

Results

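Prostaglandins are made in steps, and 9 genes that encode these steps and their readers were followed here in cultured mouse kidney epithelial cells given the cytokine TWEAK. They were Pla2g4a, Ptgs1, Ptgs2, Ptges, Ptges2, Ptgis, Ptger1, Ptger4 and Hpgd, found by their current mouse symbols among the 36528 genes of the count files, where all 9 symbols matched. In short, TWEAK lowered Pla2g4a, Ptgs2 and Ptger4 and raised Ptges, at 6 h and at 24 h. Each of these changes was less than 2-fold. With NIK SMI1 present, Ptges was lower than with TWEAK alone at both times, and Pla2g4a was higher at 24 h. The Ptges call for NIK SMI1 at 24 h was lost when any of 4 single samples was left out. Ptgis and Hpgd were at or near 0 reads throughout.

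The cells were primary murine RPTEC (renal tubulointerstitial epithelial cells of C57BL/6 mice, from a commercial supplier), and RNASeq was done on 3 samples in each of 6 groups, 18 in all. All cultures were kept in the same medium, and the groups received vehicle (DMSO), TWEAK at 100 ng/mL, or TWEAK at 100 ng/mL with 3 μM NIK SMI1, each for 6 h or 24 h. TWEAK is a cytokine of the tumor necrosis factor family, and NIK SMI1 is a small molecule inhibitor of NF-κB inducing kinase (NIK), which drives non-canonical NF-κB signaling. No group received NIK SMI1 without TWEAK, and the labels do not say whether the 3 samples of a group were separate cultures. The p-values therefore set each difference against the spread between these samples, modelled jointly over all 18.

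As background, cytosolic phospholipase A2 frees arachidonic acid from membranes. The cyclooxygenases turn it into prostaglandin H2, and terminal synthases turn that into prostaglandin E2, prostacyclin and the other prostanoids. These leave the cell, act on G protein-coupled receptors of the same or nearby cells, and are taken up again and oxidized. In the kidney, prostaglandins are known for their part in blood flow and in salt and water handling, and Ptgs2 is the cyclooxygenase classically induced by inflammatory signals.

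Between 18040966 and 51956444 reads were counted per sample (median 35374254), and levels are given as CPM (counts per 1000000 counted reads). A count of 0 allows up to 3 reads, which is 0.0577 to 0.1663 CPM, and covers counting error only. All 8 epithelial and nephron markers were above 1 CPM on average, but of 9 proximal tubule markers 3 were, and Slc34a1, Slc22a6 and Hnf4a had at most 3 reads in every sample. The cells are therefore called RPTEC by their label. Of the distal nephron, leukocyte, endothelial, fibroblast and podocyte lists, Scnn1a, Cd68 and Col1a1 alone were above 1 CPM on average. Summed over each list, the epithelial markers were at 10200 to 10700 CPM in vehicle, 9460 to 9810 CPM with TWEAK and 10000 to 10600 CPM with NIK SMI1 added at 6 h, and at 9130 to 9290, 8030 to 8140 and 8880 CPM at 24 h, lowest with TWEAK at both times, as were Pla2g4a, Ptgs2 and Ptger4. The distal nephron sum, mostly Scnn1a, was at 5.38 to 6.3 CPM in vehicle, 2.57 to 3.61 CPM with TWEAK and 3.57 to 4.6 CPM with NIK SMI1 at 24 h. TWEAK and vehicle sums also lay apart for fibroblast markers at 6 h (9.74 to 11.3 against 12.3 to 14.0 CPM) and, at 24 h, for proximal tubule (12.1 to 13.2 against 13.3 to 14.8 CPM) and endothelial markers (0.573 to 0.813 against 0.195 to 0.507 CPM). The part of these shifts in the results was not tested. In bulk RNA, fewer cells of a kind and less RNA per cell cannot be told apart. Reads of pancreatic islet genes, summed over 6 of them, reached 11.6 to 23.9 CPM in all samples of 4 groups, 0.214, 3.47 and 11.1 CPM in the TWEAK 24 h samples, and at most 0.065 CPM in the 24 h samples with NIK SMI1. Their part in the results at 24 h was not tested. Values without TWEAK 24 h samples 1 and 3, which hold such reads, are given where a call described here was lost. That fit keeps 1 TWEAK 24 h sample, assumes that it varies like the other groups, and sets it beside vehicle 24 h samples with 11.6 to 15.7 CPM of islet reads. In a call lost there, the loss of samples and the islet reads cannot be told apart. TWEAK raised 5 of 5 NF-κB target genes checked (Traf1, Nfkb2, Relb, Birc3 and Nfkbia) at both times, by 0.82 to 5.68 on the log2 scale, and NIK SMI1 lowered all 5.

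The promoter sequences of 3 members are shown because these changed with TWEAK at both times: Ptgs2 and Ptger4, which were lower, and Ptges, which was higher. Pla2g4a, which was lower too, has more than 1 start in the table used and is not shown. Each printed sequence runs 5′ to 3′ on the gene's own strand from 250 bases before to 50 bases after the transcript start in RefSeq (build GRCm38.p6), and such windows were found for 7 of the 9 members. Capitals mark 3 short words looked for on both strands: TGACGT (the core of a cAMP response element), CACGTG (an E-box) and GGGCGG (a GC box), and a match on the other strand is printed as its reverse complement. These words were picked after the sequences had been seen.
Ptgs2, chr1:150099781-150100080, plus strand: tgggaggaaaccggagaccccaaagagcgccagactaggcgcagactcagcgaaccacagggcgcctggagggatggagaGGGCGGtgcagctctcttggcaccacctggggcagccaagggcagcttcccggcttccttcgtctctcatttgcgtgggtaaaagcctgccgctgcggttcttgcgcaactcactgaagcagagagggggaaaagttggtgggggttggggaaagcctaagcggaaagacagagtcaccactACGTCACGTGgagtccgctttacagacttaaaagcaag
Ptges, chr2:30903248-30903547, minus strand: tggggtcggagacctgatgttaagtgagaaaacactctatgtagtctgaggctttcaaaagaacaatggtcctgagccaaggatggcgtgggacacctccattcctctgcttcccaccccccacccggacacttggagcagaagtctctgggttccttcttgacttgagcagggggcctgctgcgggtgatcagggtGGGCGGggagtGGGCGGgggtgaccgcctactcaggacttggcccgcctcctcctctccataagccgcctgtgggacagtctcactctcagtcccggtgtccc
Ptger4, chr15:5244138-5244437, minus strand: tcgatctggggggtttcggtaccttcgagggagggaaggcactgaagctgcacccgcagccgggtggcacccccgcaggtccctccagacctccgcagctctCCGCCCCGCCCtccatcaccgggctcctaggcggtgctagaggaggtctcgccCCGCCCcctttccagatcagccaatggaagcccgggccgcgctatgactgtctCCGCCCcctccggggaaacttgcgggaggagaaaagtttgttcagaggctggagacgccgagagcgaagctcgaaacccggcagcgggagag

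In the Ptgs2 window the TGACGT word (bases 12 to 17 after the start, on the other strand) and the E-box (bases 16 to 21) share 2 letters and are shown as 1 capital run, and a GC box begins at base -170. The Ptges window holds GC boxes that begin at bases -53 and -42, and it lies inside the gene as GENCODE M21 draws it, which has a start further upstream. The Ptger4 window holds 4 GC boxes, of which the first pair share 1 letter. Among 32851 promoters of the same length, 7.51% held TGACGT, 7.15% held CACGTG and 35.7% held GGGCGG. The NF-κB consensus, held by 8.46% of those promoters, had no match in the windows of the 7 members, which says only that these letters are not in these windows. A match is likewise a description of the letters and not of a bound site.

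To compare the genes with each other, the RPKM values of the authors were used (reads scaled by exon length and by the reads of the sample). Averaged over the 18 samples, Ptgs2 stood at 24.7 RPKM, Pla2g4a at 24.4, Ptges2 at 22.8, Ptger1 at 10.1, Ptger4 at 4.64, Ptges at 1.82 and Ptgs1 at 0.451. The ranges over samples of the first 3 overlapped, Ptgs2 (10.4 to 43.4 RPKM) also overlapped Ptger1 (8.37 to 12.4 RPKM), and no range overlapped another from Ptger1 down to Ptgs1. The inducible cyclooxygenase Ptgs2 was above 79.7% of the tested genes on this scale, Ptges above 28.6% and Ptgs1 above 14.8%.

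**Figure D1:**
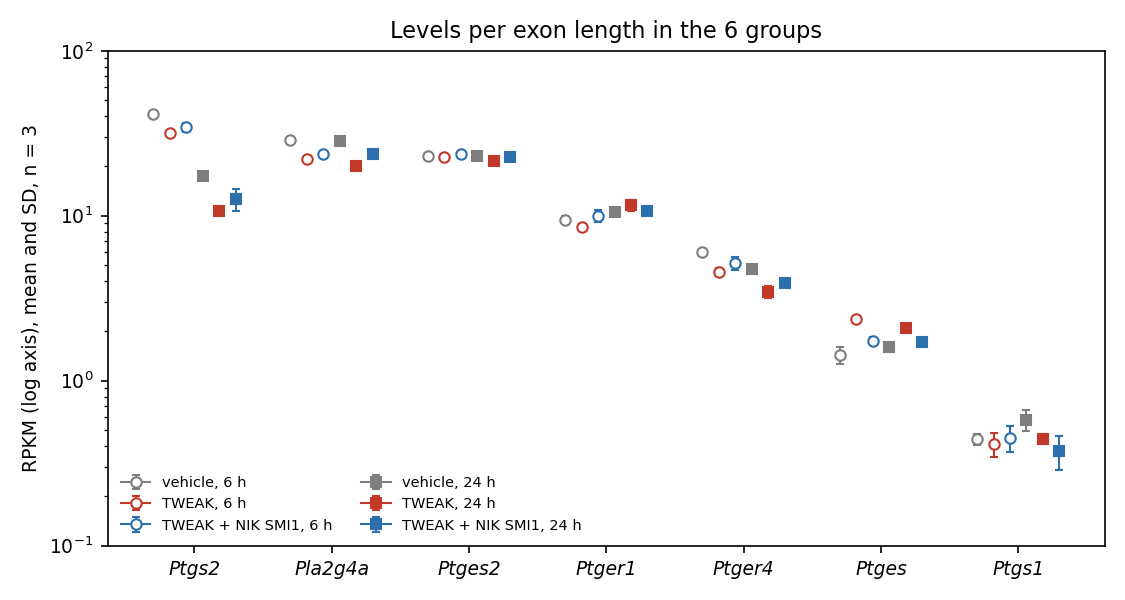
Mean RPKM and SD (n = 3, log axis) of the 7 tested prostaglandin genes in the 6 groups, open circles at 6 h and filled squares at 24 h, with vehicle in grey, TWEAK in red and TWEAK with NIK SMI1 in blue. Ptgs2, Pla2g4a and Ptges2 average 22.8 to 24.7 RPKM over all samples, Ptges 1.82 and Ptgs1 0.451.

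Comparisons between groups were tested with edgeR's quasi-likelihood test on the counts of the 15521 genes that passed the filter on low counts, 7 of the 9 members among them, and a gene was called at a Benjamini-Hochberg adjusted p below 0.05. For TWEAK against vehicle at 6 h, 1 of the 7 was called higher, where 11.7% of all tested genes were, and 3 were called lower, where 12% of all tested genes were. At 24 h the counts were again 1 higher (18.3% of all tested genes) and 3 lower (20.7%). The median log2 fold change of the 7 was -0.12 at 6 h and -0.36 at 24 h, and that of all tested genes was -0.0034 and -0.0055. TWEAK and vehicle samples did not overlap for 5 of the 7 at 6 h and 7 at 24 h. The same held for 5594 and 7708 of the 15521 tested genes, so a lack of overlap was common.

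For TWEAK with NIK SMI1 against TWEAK, 1 member was called higher at 6 h (Ptger1, beside 5.34% of all tested genes) and 1 lower (Ptges, beside 5.7%). At 24 h, 1 was called higher (Pla2g4a, beside 10.2%) and 1 lower (Ptges, beside 8.29%). The medians were 0.10 and 0.07, beside 0.0029 and 0.0083 for all tested genes. These comparisons share the TWEAK samples with the former. TWEAK samples with and without NIK SMI1 did not overlap for 4 members at 6 h and 3 at 24 h. The same held for 4131 and 5253 of all tested genes. For TWEAK with NIK SMI1 against vehicle, 1 member was called higher (7.24%) and 3 lower (6.7%) at 6 h, and 0 were called higher (8.07%) and 4 lower (9.83%) at 24 h.

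**Figure D2:**
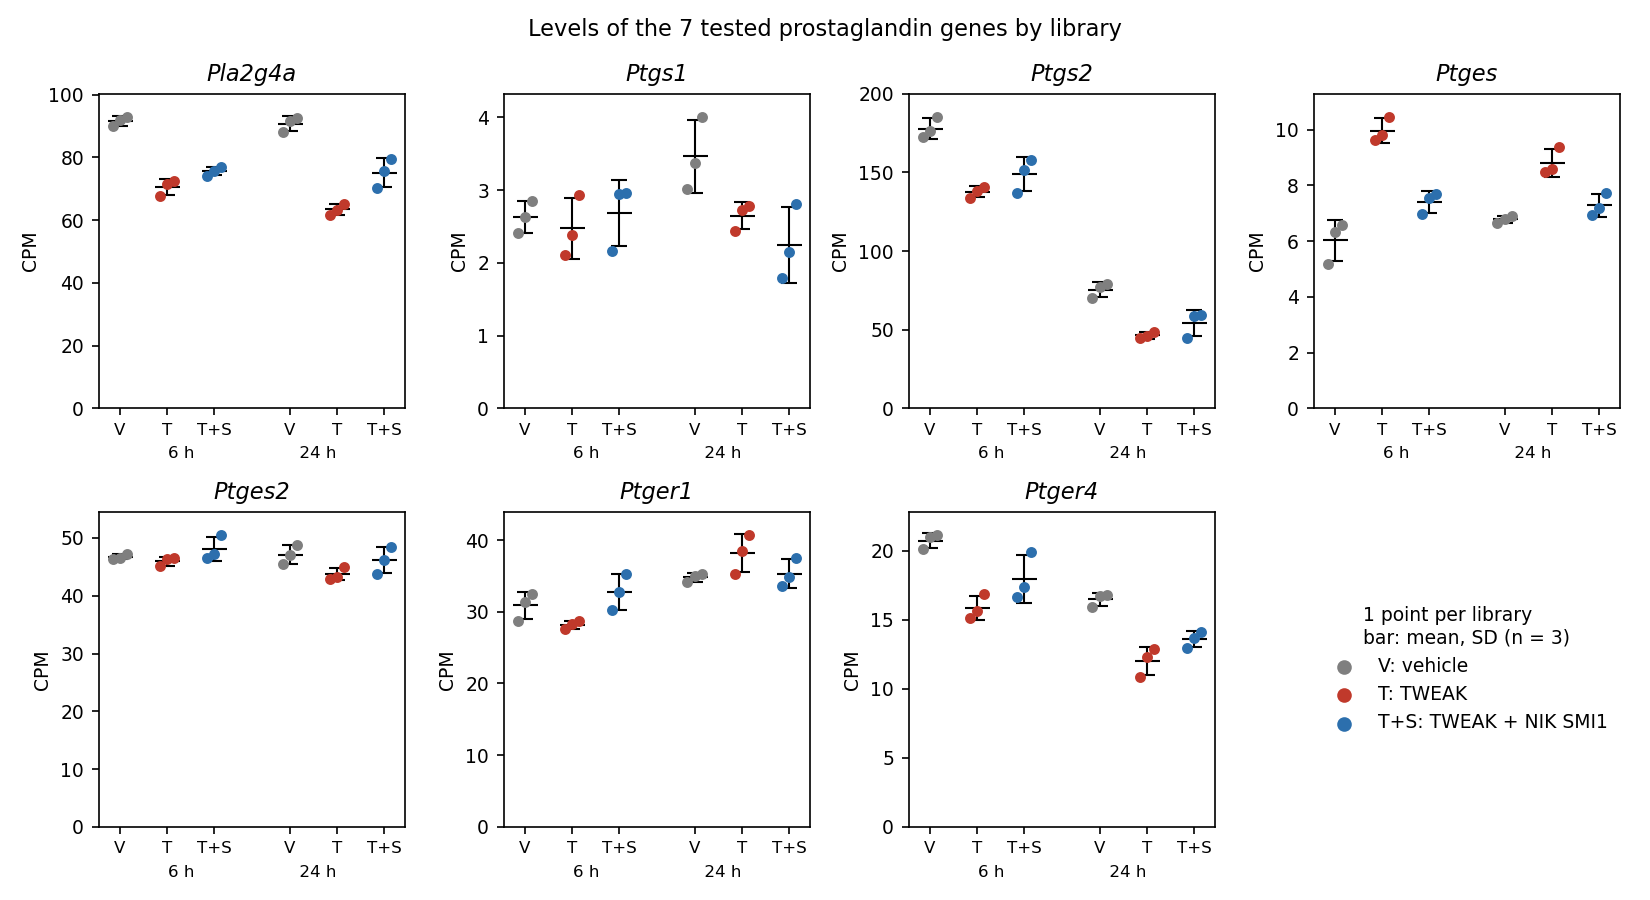
CPM of the 7 tested genes in each library (points), with mean and SD (n = 3), for vehicle (V), TWEAK (T) and TWEAK with NIK SMI1 (T+S) at 6 h and 24 h; each vertical axis starts at 0. All TWEAK points of Pla2g4a, Ptgs2 and Ptger4 lie below, and those of Ptges above, the vehicle points of the same time. TWEAK and vehicle did not overlap for 5 of the 7 genes at 6 h and 7 at 24 h. The same held for 5594 and 7708 of all 15521 tested genes.

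Pla2g4a encodes cytosolic phospholipase A2, which frees arachidonic acid. Its gene lies at chr1:149829618-149961290 on the minus strand (GRCm38). At 6 h its levels were 89.9, 91.8 and 92.9 CPM in vehicle, 67.7, 71.3 and 72.5 CPM with TWEAK, and 74.1, 75.8 and 76.8 CPM with TWEAK plus NIK SMI1. At 24 h they were 88.0, 91.6 and 92.5 CPM in vehicle, 61.7, 63.3 and 65.2 CPM with TWEAK, and 70.2, 75.7 and 79.4 CPM with NIK SMI1 added. At both times all TWEAK samples lay below all vehicle samples, and the samples with NIK SMI1 lay between them with no overlap on either side. Pla2g4a fell with TWEAK by 22.3% at 6 h (log2 fold change -0.36, SE 0.040, adjusted p = 4.6e-08) and by 30.1% at 24 h (-0.52, SE 0.042, adjusted p = 6.6e-11).

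With NIK SMI1, Pla2g4a was 17.9% higher than with TWEAK alone at 24 h (log2 fold change 0.24, SE 0.041, adjusted p = 9.5e-05). At 6 h the difference was 0.09 (95% interval 0.01 to 0.18) with an adjusted p of 0.17. Against vehicle, Pla2g4a remained lower with TWEAK plus NIK SMI1, by 17.1% at 6 h (adjusted p = 2.8e-05) and 17.6% at 24 h (adjusted p = 8.9e-06). The difference between the NIK SMI1 effects at 24 h and 6 h was 0.14 (adjusted p = 0.168), so a change of that effect with time was not shown.

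Ptgs2 encodes the inducible cyclooxygenase, COX-2, and lies at chr1:150100031-150108227 on the plus strand. At 6 h it was at 172, 176 and 185 CPM in vehicle, 134, 138 and 141 CPM with TWEAK, and 137, 152 and 158 CPM with TWEAK plus NIK SMI1. By 24 h it stood at 70.0, 77.4 and 78.8 CPM in vehicle, 44.6, 46.1 and 48.8 CPM with TWEAK, and 44.9, 59.0 and 59.3 CPM with NIK SMI1 added. The levels at 24 h were all under those at 6 h, and TWEAK samples were below vehicle samples at both times. In vehicle alone Ptgs2 was 2.46-fold lower at 24 h than at 6 h (log2 fold change -1.30, SE 0.071, adjusted p = 6.4e-14). Over that time in vehicle, 0 of the 7 members were called higher, where 15.5% of all tested genes were, and 2 lower, Ptgs2 and Ptger4, where 14.4% were.

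TWEAK lowered Ptgs2 by 21.9% at 6 h (log2 fold change -0.36, SE 0.067, adjusted p = 0.000152) and by 38.4% at 24 h (-0.70, SE 0.075, adjusted p = 1.9e-08). It was the 1 member of 7 called for a different TWEAK effect at 24 h and 6 h, where 8.91% of all tested genes were called (difference -0.34, SE 0.10, adjusted p = 0.0298). That call was lost in DESeq2 (adjusted p = 0.0848) and when any of 8 single samples was left out: vehicle 6 h samples 2 and 3, TWEAK 6 h samples 1 and 2, vehicle 24 h samples 1 and 2, and TWEAK 24 h samples 1 and 2 (adjusted p up to 0.106). With 1 TWEAK 24 h sample kept, the one nearly free of islet reads, the difference was -0.37 with an adjusted p of 0.111.

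With NIK SMI1, Ptgs2 differed from TWEAK alone by 0.10 at 6 h (95% interval -0.04 to 0.24, adjusted p = 0.385). At 24 h the difference was 0.21 (95% interval 0.06 to 0.37), just short of a call at an adjusted p of 0.0512, and TWEAK plus NIK SMI1 sample 1 at 24 h, the lowest of its group, overlapped the TWEAK samples. Without that sample the difference was 0.34 (adjusted p = 0.0001), and without any one of vehicle 6 h sample 1 or TWEAK plus NIK SMI1 6 h samples 2 and 3 it was called at 0.21 (adjusted p = 0.0329, 0.0436 and 0.049). Total counts in place of TMM (adjusted p = 0.0446), no filter on low counts (6.1e-05) and a fit of the 24 h samples alone (0.0373) also called it, and DESeq2 did not (0.0898). Against vehicle, Ptgs2 was lower with TWEAK plus NIK SMI1 by 16.0% at 6 h (adjusted p = 0.0116, and 0.0991 without TWEAK plus NIK SMI1 6 h sample 2) and by 28.7% at 24 h (adjusted p = 1.6e-05).

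Ptgs1, the constitutive cyclooxygenase COX-1, had 39 to 148 reads per sample. It was at 2.40, 2.62 and 2.85 CPM in vehicle, 2.11, 2.39 and 2.93 CPM with TWEAK and 2.16, 2.95 and 2.95 CPM with TWEAK plus NIK SMI1 at 6 h. Its 24 h levels were 3.02, 3.37 and 4.01 CPM in vehicle, 2.44, 2.73 and 2.78 CPM with TWEAK, and 1.79, 2.14 and 2.81 CPM with NIK SMI1 added. The 6 h groups overlapped, and at 24 h vehicle was above both other groups. The log2 fold change with TWEAK was -0.09 (95% interval -0.43 to 0.26) at 6 h and -0.36 (-0.72 to -0.01) at 24 h, with adjusted p of 0.786 and 0.0985. Ptgs1 fell by 33.9% in TWEAK plus NIK SMI1 against vehicle at 24 h (log2 fold change -0.60, SE 0.175, adjusted p = 0.0157). That call was lost without vehicle 24 h sample 2 or TWEAK plus NIK SMI1 24 h samples 1 or 3 (adjusted p up to 0.0915).

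The ratio of Ptgs2 to Ptgs1 in RPKM was 93.8 ± 7.47 (SD, n = 3) in vehicle at 6 h and 30.4 ± 4.94 in vehicle at 24 h. In the TWEAK samples it was 78.0 ± 11.5 at 6 h and 24.3 ± 2.85 at 24 h. With NIK SMI1 added it was 78.5 ± 19.6 and 34.5 ± 9.71. Every 6 h sample was above every 24 h sample, and within a time every pair of groups overlapped except TWEAK with and without NIK SMI1 at 24 h. Ptgs2 was above Ptgs1 on this scale in all 18 samples.

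Ptges encodes microsomal prostaglandin E synthase-1, the inducible enzyme that turns prostaglandin H2 into prostaglandin E2, and lies at chr2:30889471-30929863 on the minus strand. At 6 h it was at 5.18, 6.33 and 6.57 CPM in vehicle, 9.62, 9.82 and 10.5 CPM with TWEAK, and 6.96, 7.55 and 7.71 CPM with TWEAK plus NIK SMI1. After 24 h it measured 6.65, 6.79 and 6.90 CPM in vehicle, 8.48, 8.58 and 9.38 CPM with TWEAK, and 6.93, 7.20 and 7.74 CPM with NIK SMI1 added. At each time the TWEAK samples were the 3 highest and the vehicle samples the 3 lowest, with the NIK SMI1 samples between. The counts behind these levels were 131 to 494 reads per sample.

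TWEAK raised Ptges by 65.6% at 6 h (log2 fold change 0.73, SE 0.085, adjusted p = 1.4e-07) and by 28.8% at 24 h (0.36, SE 0.091, adjusted p = 0.0022). With the 1 TWEAK 24 h sample nearly free of islet reads, the latter was 0.31 with an adjusted p of 0.0626. NIK SMI1 lowered Ptges by 26.5% at 6 h (log2 fold change -0.44, SE 0.088, adjusted p = 0.00089) and by 17.1% at 24 h (-0.27, SE 0.087, adjusted p = 0.0279). The 24 h call was lost when TWEAK 24 h sample 1 or 3, or TWEAK plus NIK SMI1 24 h sample 1 or 2, was left out (adjusted p up to 0.106), with no filter on low counts (0.0678), and with the 1 TWEAK 24 h sample nearly free of islet reads (-0.22, adjusted p = 0.319).

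Against vehicle, Ptges was 21.7% higher with TWEAK plus NIK SMI1 at 6 h (log2 fold change 0.28, adjusted p = 0.0425). This call was lost when any of 6 samples was left out (vehicle 6 h samples 1 and 3, TWEAK 6 h sample 2, or any TWEAK plus NIK SMI1 6 h sample, adjusted p up to 0.215), and under DESeq2, total counts, no filter or a fit of the 6 h samples alone (up to 0.0954). In the fit that keeps 1 TWEAK 24 h sample it was 0.28 with an adjusted p of 0.0507. At 24 h the difference from vehicle was 0.09 (95% interval -0.10 to 0.29, adjusted p = 0.575). The difference between the TWEAK effects on Ptges at 24 h and 6 h was -0.36 (adjusted p = 0.0725).

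**Figure D3:**
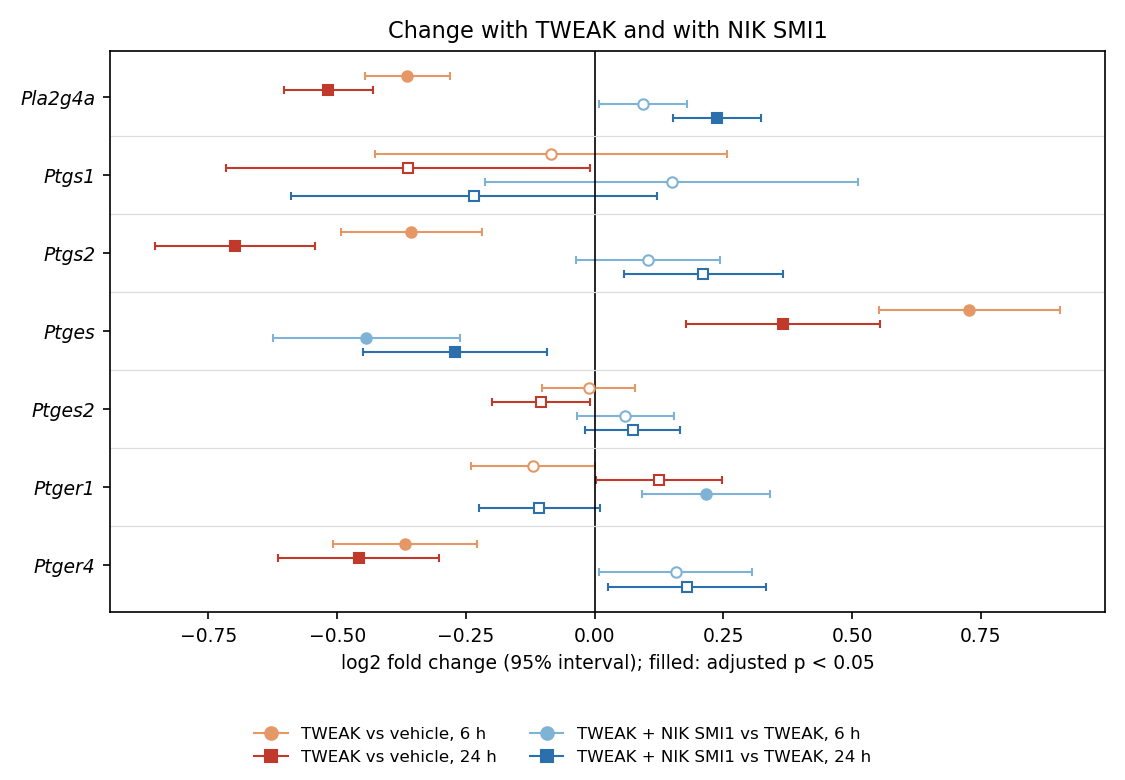
Log2 fold change with its 95% interval for the 7 tested genes, for TWEAK against vehicle (orange 6 h, red 24 h) and for TWEAK with NIK SMI1 against TWEAK (light blue 6 h, dark blue 24 h); filled symbols have an adjusted p below 0.05. Ptges is the 1 gene with filled symbols to the right for TWEAK (0.73 and 0.36) and to the left for NIK SMI1 (-0.44 and -0.27).

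Ptges2 encodes the membrane-associated prostaglandin E synthase-2, and it was called in none of the 9 comparisons, time effects included. Its 18 samples lay between 42.9 and 50.5 CPM. With TWEAK the log2 fold change was -0.01 (95% interval -0.10 to 0.08, adjusted p = 0.902) at 6 h and -0.10 (-0.20 to -0.01, adjusted p = 0.0773) at 24 h. With NIK SMI1 against TWEAK it was 0.06 (-0.03 to 0.15) at 6 h and 0.07 (-0.02 to 0.17) at 24 h. The 6 h vehicle and TWEAK samples overlapped, and at 24 h the TWEAK samples (42.9 to 44.9 CPM) were under the vehicle samples (45.6 to 48.8 CPM).

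In RPKM, Ptges2 exceeded Ptges in every sample. Their ratio at 6 h was 16.3 ± 2.10 (SD, n = 3) with vehicle, 9.59 ± 0.300 with TWEAK and 13.5 ± 0.828 with TWEAK plus NIK SMI1. At 24 h it was 14.5 ± 0.776, 10.3 ± 0.714 and 13.2 ± 1.38. The TWEAK samples had the lowest ratios of their time, 9.25 to 9.79 at 6 h and 9.59 to 11.01 at 24 h, with no overlap with the other groups. With 3 samples against 3 an exact permutation test cannot go below 0.1 and none was run on the ratio.

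Ptgis encodes prostacyclin synthase. It had 1 read in TWEAK 6 h sample 1 and 1 read in TWEAK plus NIK SMI1 6 h sample 1, and 0 reads in the other 16 samples. No fold change was computed from these counts, which were under the limit of 3 reads.

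Ptger1 encodes EP1 and Ptger4 encodes EP4, receptors of prostaglandin E2 that raise calcium and cyclic AMP, respectively. Ptger4 lies at chr15:5206661-5244187 on the minus strand. At 6 h Ptger4 was at 20.1, 21 and 21.1 CPM in vehicle, 15.1, 15.6 and 16.8 CPM with TWEAK, and 16.6, 17.4 and 19.9 CPM with TWEAK plus NIK SMI1. By 24 h it stood at 15.9, 16.7 and 16.8 CPM in vehicle, 10.9, 12.3 and 12.9 CPM with TWEAK, and 12.9, 13.7 and 14.1 CPM with NIK SMI1 added. Vehicle was highest at both times, and the TWEAK samples lay below it without overlap.

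TWEAK lowered Ptger4 by 22.6% at 6 h (log2 fold change -0.37, SE 0.068, adjusted p = 0.000125) and by 27.2% at 24 h (-0.46, SE 0.076, adjusted p = 1.9e-05). In vehicle alone it was 24.3% lower at 24 h than at 6 h (-0.40, SE 0.071, adjusted p = 7.6e-05). NIK SMI1 against TWEAK gave 0.16 (95% interval 0.01 to 0.31, adjusted p = 0.186) at 6 h and 0.18 (0.03 to 0.33, adjusted p = 0.101) at 24 h. Against vehicle, Ptger4 was lower with TWEAK plus NIK SMI1 by 13.7% at 6 h (adjusted p = 0.0449) and 17.6% at 24 h (adjusted p = 0.00831). The 6 h call was lost without any one of 10 samples: vehicle 6 h samples 1 and 2, TWEAK 6 h sample 3, TWEAK plus NIK SMI1 6 h samples 1 and 2, the 3 vehicle 24 h samples, TWEAK 24 h sample 2 and TWEAK plus NIK SMI1 24 h sample 3 (adjusted p up to 0.238). The 24 h call was lost without TWEAK plus NIK SMI1 24 h sample 1 (adjusted p = 0.0548). Of the exonic bases of Ptger4, 15.3% overlap the pseudogene Gm15937 on the other strand.

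The Ptger1 values cannot be assigned to Ptger1 alone. The library kit does not keep the strand, and reads from any transcript that overlaps its exons could be counted for it. Ptger1 was at 28.7, 31.4 and 32.5 CPM in vehicle, 27.6, 28.3 and 28.7 CPM with TWEAK and 30.2, 32.8 and 35.3 CPM with TWEAK plus NIK SMI1 at 6 h. Its 24 h levels were 34.1, 35.0 and 35.3 CPM in vehicle, 35.3, 38.5 and 40.7 CPM with TWEAK, and 33.6, 34.8 and 37.6 CPM with NIK SMI1 added. TWEAK samples lay just below the vehicle samples at 6 h and just above them at 24 h, and the samples with NIK SMI1 lay above the TWEAK samples at 6 h.

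At 6 h Ptger1 counts were 16.1% higher with NIK SMI1 than with TWEAK alone (log2 fold change 0.22, SE 0.060, adjusted p = 0.0188). The Ptger1 call was lost without TWEAK 6 h sample 1 or TWEAK plus NIK SMI1 6 h sample 1 or 2 (adjusted p up to 0.166). With TWEAK against vehicle, Ptger1 gave -0.12 (95% interval -0.24 to -0.000056, adjusted p = 0.151) at 6 h and 0.12 (0.0022 to 0.25, adjusted p = 0.102) at 24 h, the latter called without TWEAK 24 h sample 3 (adjusted p = 0.0316). It was the 1 member called for a different NIK SMI1 effect at 24 h and 6 h, where 4.73% of all tested genes were (difference -0.32, SE 0.084, adjusted p = 0.0236). That call was lost when any of 7 samples was left out: TWEAK 6 h sample 1, TWEAK plus NIK SMI1 6 h samples 1 and 2, TWEAK 24 h samples 1 and 2, and TWEAK plus NIK SMI1 24 h samples 2 and 3 (adjusted p up to 0.103). With 1 TWEAK 24 h sample kept, the difference was -0.33 with an adjusted p of 0.078.

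Hpgd encodes 15-hydroxyprostaglandin dehydrogenase, the main enzyme that inactivates prostaglandins. It had 0 reads in all 18 samples. Its mRNA was not detectable at this depth.

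Of 38 other genes of prostanoid metabolism (19 phospholipases A2, 7 synthases, 7 receptors and 5 genes of transport and breakdown), 15 passed the filter on low counts. TWEAK raised 2 and lowered 3 of the 15 at 6 h, beside 11.7% and 12% of all tested genes, and raised 3 and lowered 5 at 24 h, beside 18.3% and 20.7%. The 3 raised at 24 h include Ptgds, which passed the filter only through the samples with TWEAK alone. With NIK SMI1 against TWEAK, 1 was higher and 1 lower at 6 h (5.34% and 5.7% of all tested genes), and 2 were higher and 2 lower at 24 h (10.2% and 8.29%). Their median log2 fold changes were -0.0493 and -0.0365 with TWEAK and 0.0602 and 0.0776 with NIK SMI1, beside -0.0034, -0.0055, 0.0029 and 0.0083 for all tested genes. Of the 7 other receptor genes 1 passed the filter, Ptgdr2, a receptor of prostaglandin D2, with 44 to 146 reads per sample. It was not called in these 4 comparisons (log2 fold change 0.40 with TWEAK at 6 h, 95% interval 0.06 to 0.74, adjusted p = 0.0813, and 0.0451 without vehicle 6 h sample 1). Of the exonic bases of Ptgdr2, 39.0% overlap the protein-coding gene Ccdc86 on the other strand, so these reads cannot be assigned to Ptgdr2 alone. The other 6 were not tested: Ptger2 and Ptger3, which encode EP2 and EP3, had at most 2 reads in any sample, Ptgdr had none, and Ptgfr, Ptgir and Tbxa2r had at most 1, 3 and 6.

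**Figure D4:**
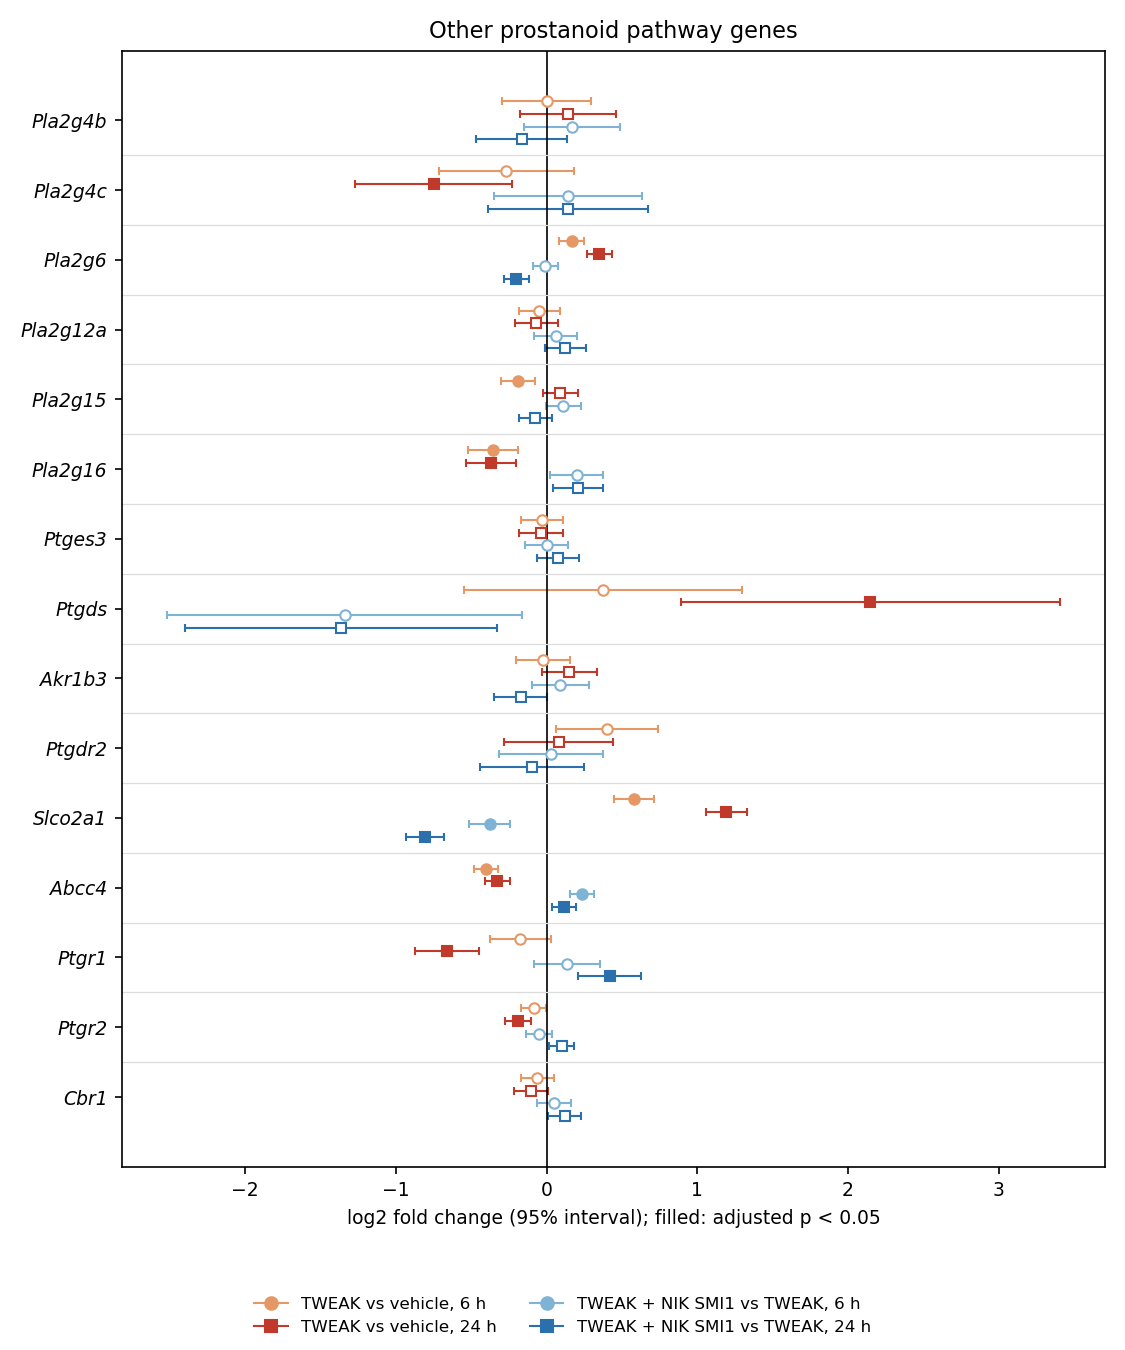
Log2 fold change with its 95% interval for the 15 tested other genes of the prostanoid pathway, for TWEAK against vehicle (orange 6 h, red 24 h) and TWEAK with NIK SMI1 against TWEAK (light blue 6 h, dark blue 24 h); filled symbols have an adjusted p below 0.05. Slco2a1 (0.58 and 1.19 with TWEAK) and Abcc4 (-0.40 and -0.33) have filled symbols on both sides in all 4 comparisons, and the Ptgds intervals are wide because it had at most 19 reads.

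Slco2a1, the transporter that takes prostaglandins up for oxidation, was called in all 4 comparisons. At 6 h it was at 16.6, 17.6 and 18.8 CPM in vehicle, 25.9, 26.0 and 26.5 CPM with TWEAK, and 20.01, 20.2 and 20.3 CPM with TWEAK plus NIK SMI1. At 24 h it was at 18.1, 18.4 and 20.4 CPM in vehicle, 40.9, 43.1 and 45.3 CPM with TWEAK, and 22.2, 25.8 and 26.1 CPM with NIK SMI1 added. The 3 groups did not overlap at either time. TWEAK raised it 1.49-fold at 6 h (log2 fold change 0.58, SE 0.064, adjusted p = 4.8e-08) and 2.29-fold at 24 h (1.19, SE 0.065, adjusted p = 2.2e-14), and NIK SMI1 lowered it by 23.0% (adjusted p = 0.000211) and 42.9% (adjusted p = 9.0e-11). With NIK SMI1 at 24 h it was still 30.6% above vehicle (adjusted p = 0.000104).

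Abcc4, an efflux pump that can export prostaglandin E2, went the other way. It was at 303 to 322 CPM in vehicle, 226 to 240 CPM with TWEAK and 267 to 285 CPM with TWEAK plus NIK SMI1 at 6 h, and at 276 to 289, 220 to 230 and 234 to 250 CPM at 24 h. TWEAK lowered it by 24.4% and 20.2% (adjusted p = 2.9e-09 and 1.1e-07), and NIK SMI1 raised it by 17.8% at 6 h (adjusted p = 8.5e-05) and 8.26% at 24 h (adjusted p = 0.0389). The last call was lost without TWEAK 24 h sample 1 or 2 or TWEAK plus NIK SMI1 24 h sample 2 or 3 (adjusted p from 0.088 to 0.172), and with 1 TWEAK 24 h sample kept (0.15, adjusted p = 0.109, from 0.11).

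Among the phospholipases, Pla2g6 (calcium-independent phospholipase A2) rose with TWEAK by 12.2% at 6 h and 27.4% at 24 h (adjusted p = 0.00209 and 8.0e-08) and was 13.0% lower with NIK SMI1 at 24 h (adjusted p = 0.000435). Pla2g16, an adipose phospholipase, fell with TWEAK by 22.0% and 22.6% (adjusted p = 0.00122 and 0.000679). Pla2g15, the lysosomal enzyme, fell by 12.4% at 6 h (adjusted p = 0.0098, and 0.0787 without TWEAK 6 h sample 1). Pla2g4c, a calcium-independent relative of Pla2g4a with 17 to 95 reads per sample, fell by 40.5% at 24 h (adjusted p = 0.02). The Pla2g4c call was lost without TWEAK 24 h sample 2 (adjusted p = 0.0609) or vehicle 24 h sample 1 (0.114), and, with 1 TWEAK 24 h sample kept, its log2 fold change was -0.78 (adjusted p = 0.108) in place of -0.75.

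Ptgds, a prostaglandin D synthase, had 0 to 19 reads per sample. It passed the filter on low counts (more than 10 reads in at least 4 samples) only through the samples with TWEAK alone. Outside them, vehicle 6 h sample 2 (17 reads) alone exceeded 10 reads. Its call with TWEAK is therefore not independent of the filter. At 24 h it had 6, 0 and 1 reads in vehicle samples 1 to 3, 11, 19 and 12 reads with TWEAK and 6, 6 and 4 reads with NIK SMI1 added, and it was called higher with TWEAK (log2 fold change 2.15, SE 0.61, adjusted p = 0.00622). Without vehicle 24 h sample 1, which held 6 of the 7 vehicle reads, the Ptgds value was 3.75 (adjusted p = 0.00445). In a fit of the 24 h samples alone Ptgds did not pass the filter, and 2 of the other pathway genes were then called higher. The share of all tested genes was not counted for that fit. Ptgr1 and Ptgr2, reductases that act on prostaglandin metabolites, fell with TWEAK at 24 h by 36.8% and 12.3% (adjusted p = 8.4e-06 and 0.000702). Ptgr1 was 33.7% higher with NIK SMI1 than with TWEAK alone at 24 h (adjusted p = 0.00361), a log2 fold change of 0.42 that was 0.33 with 1 TWEAK 24 h sample kept (adjusted p = 0.178). Of the exonic bases of Ptgr2, 32.0% overlap a long non-coding RNA on the other strand.

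Genes whose pattern over the 6 group means was closest to that of a TWEAK-responsive member were listed by Pearson correlation of log2(CPM + 0.5), as a description over 6 points that share libraries. For Pla2g4a these were Gata6 (r = 0.9996), Csgalnact1 (0.9971) and Lrrn1 (0.9942). For Ptgs2 they were Gm19610 (0.9973), Tm4sf1 (0.997) and Zdhhc5 (0.9957), and for Ptger4 they were Krt20 (0.9955), Dcun1d3 (0.9955) and the unnamed Entrez Gene 100039673 (0.9954). For Ptges they were Gm13782 (0.9871), Pramel12 (0.9855) and Aox1 (0.9847). Over the 18 samples the correlation of Ptges with Gm13782, which was at most 0.373 CPM, was 0.0938, while those of the other 11 genes with their members were 0.789 to 0.972. The genes were picked by the group means of these same samples, so the correlations over 18 samples are no separate check.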

How the data were processed

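Single-end RNASeq libraries (TruSeq v2, unstranded) of 18 RPTEC samples were analysed. The authors used HTSeqGenie, which calls GSNAP, to align reads to NCBI build 37. They deposited, per gene, the count of uniquely aligned reads in exons, with no normalization, and an RPKM value, scaled by exon length and total reads. The labels and the study's methods differ on sequencer, read length and input RNA.

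All tests used the deposited counts. The 15521 genes with more than 10 reads in at least 4 samples entered a model of 6 groups in R 4.3.3, with edgeR 4.0.16 (TMM, quasi-likelihood F test) with Benjamini-Hochberg adjustment over all of them. Standard errors came from the F statistic. CPM used the total of gene counts; RPKM entered no test. Alternatives were DESeq2 1.42.0, other scalings, filters and call rules, single time points, and each sample left out. Sample numbers follow accession order.

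Symbols and positions came from RefSeq and GENCODE M21 (GRCm38), matched by Entrez identifier; none were converted from build 37. The members and lists were chosen with earlier results of these data known. Named were all members, the other pathway genes called in any of the 4 comparisons with TWEAK or NIK SMI1, and for each member called with TWEAK the 3 most similar genes. The scripts were tested on simulated data.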

Additional observations from a re-analysis of the deposited data

Results flagged for a closer look

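The effects at 24 h and 6 h differed by edgeR's interaction test (adjusted p below 0.05) in 8 cases among the prostaglandin genes and the other pathway genes, each given as the log2 effect at 24 h minus that at 6 h. For TWEAK they were Ptgs2 (-0.34, adjusted p = 0.0298), Pla2g6 (0.18, adjusted p = 0.0419), Pla2g15 (0.28, adjusted p = 0.0207), Slco2a1 (0.61, adjusted p = 3.6e-05) and Ptgr1 (-0.49, adjusted p = 0.0303). For NIK SMI1 they were Ptger1 (-0.32, adjusted p = 0.0236, with values that cannot be assigned to it alone), Pla2g6 (-0.19, adjusted p = 0.0478) and Slco2a1 (-0.43, adjusted p = 0.00504). The TWEAK cases were thus 1 of 7 tested members and 4 of 15 tested other pathway genes, beside 8.91% of all tested genes. The NIK SMI1 cases were 1 of 7 and 2 of 15, beside 4.73%. Pla2g15 was lower with TWEAK at 6 h (-0.19) and stood at 0.09 at 24 h, which was not called. Of these, both Slco2a1 differences were called whichever single sample was left out. The Pla2g15 difference was lost without TWEAK 24 h sample 2 or TWEAK 6 h sample 1 (adjusted p = 0.0673 and 0.0792). The Ptgr1 difference was lost without TWEAK 24 h sample 1 or 3, TWEAK 6 h sample 1 or 2, vehicle 24 h sample 3 or vehicle 6 h sample 3 (adjusted p from 0.0631 to 0.0977), and was -0.39 (adjusted p = 0.238) in the fit that keeps 1 TWEAK 24 h sample. The Pla2g6 difference of TWEAK was lost without any of 10 samples (all 3 of TWEAK at 24 h, TWEAK 6 h samples 1 and 3, vehicle 24 h samples 1 and 2, vehicle 6 h samples 2 and 3, and TWEAK plus NIK SMI1 24 h sample 2, adjusted p up to 0.13), with no filter on low counts (0.0931), and with 1 TWEAK 24 h sample kept (0.17, adjusted p = 0.184). That of NIK SMI1 was lost without any of 12 (all 3 of TWEAK at 24 h, TWEAK 6 h samples 1 and 3, TWEAK plus NIK SMI1 24 h samples 2 and 3 and 6 h samples 1 and 2, vehicle 24 h samples 1 and 2, and vehicle 6 h sample 2, adjusted p up to 0.151), with DESeq2 size factors (0.0509), filterByExpr (0.0501), no filter (0.105) or total counts (0.0557), and with 1 TWEAK 24 h sample kept (-0.18, adjusted p = 0.205).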

How the results depend on the processing

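No paired analysis was possible because the labels carry no replicate numbers. Of 1554 recomputed single values of the 7 tested members, 1486 kept direction and side of the threshold. A call was lost in 56 and gained in 12, and 0 reversed. Of 3327 of the 15 tested other pathway genes, 3236 kept both, 78 lost a call, 13 gained one and 0 reversed. Both totals include values not called in the main fit, which could not lose a call. They also include fits without a sample that the comparison does not use. The tallies therefore do not give the share of calls that were lost. Adding the study's fold cut-offs left 0 members in the comparisons of TWEAK or NIK SMI1 and their time differences, and 1 (from 2) for vehicle over time; other pathway genes fell to 0 and 2 for TWEAK at 6 h and 24 h, and 0 and 1 for NIK SMI1. For TWEAK with NIK SMI1 against vehicle at 6 h, no filter gave 2 members and a fit of that time alone 2 (from 4). The time difference of TWEAK had 0 members in DESeq2. Without both TWEAK 24 h samples with islet reads, chosen after seeing the data, NIK SMI1 at 24 h had 1 member and 2 other pathway genes, and both time differences had 0 members, with Ptgs2 at -0.37 (from -0.34) and Ptger1 at -0.33 (from -0.32). That fit keeps 1 TWEAK 24 h sample and assumes that it varies like the other groups, so the loss of samples and the islet reads cannot be told apart in these counts. The cause of the other changes was not tested. For these other rules and fits, shares of all tested genes were not counted, so their counts describe only how steady the calls were.

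With each sample left out in turn, member counts ranged 4 to 4 and 4 to 5 for TWEAK at 6 h and 24 h, 1 to 2 and 1 to 3 for NIK SMI1, 1 to 4 and 2 to 4 for TWEAK with NIK SMI1 against vehicle, 2 to 2 for vehicle over time, and 0 to 2 and 0 to 1 for the time differences of TWEAK and NIK SMI1. Other pathway counts ranged 4 to 6, 7 to 8, 2 to 2 and 3 to 5. Shares of all tested genes were not counted for these fits, so the ranges describe only how steady the calls were. Low counts limit Ptgs1, Pla2g4c and Ptgds, and Ptgis and Hpgd gave no test.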
